A study of Arabidopsis halleri and Arabidopsis lyrata subsp. petraea with 24 samples.

Results

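The genes AT1G68600, AT2G44240, AT2G44210, AT2G15580, CYP71B26 and AT1G73040 were followed on 24 ATH1 arrays of Affymetrix, whose 22810 probe sets were made for Arabidopsis thaliana. These 6 genes, with 1 probe set each, were picked because their signals followed that of the glucosinolate gene AOP3 across these same arrays. Their high and low arrays are therefore described without a test. The labels name RNA of Arabidopsis lyrata subsp. petraea (A. petraea below) and of the zinc-accumulating species Arabidopsis halleri, from rosette leaves or whole root systems. The plants had been given 25 µM zinc (high zinc) or stood on the full mineral medium as controls, which makes 8 groups of 3 arrays. Nothing in the labels tells whether the 3 arrays came from different plants, and the p-values below cover the spread between arrays only. Each array has a serial number from 1 to 24 in its title and is called by it here.

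Aluminium-activated malate transporters, the family of AT1G68600, are anion channels of plant membranes that let malate and other anions pass. CYP71B26 is a cytochrome P450 of the CYP71B group, a large set of plant oxidases that includes the enzyme for the last step of camalexin synthesis. AT2G44240 and AT2G44210 encode proteins with a neprosin domain, AT2G15580 encodes a RING-type zinc finger protein, and AT1G73040 a lectin of the jacalin family, whose members bind sugars. AOP3 encodes a dioxygenase that modifies the side chain of aliphatic glucosinolates, defence compounds of the cabbage family, and natural lines of A. thaliana differ in its expression.

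The organ printed in a title matched tissue markers on few arrays. Leaf markers were the mean of RCA, PSAE-1, PRK and SBPASE, genes of photosynthesis, and root markers the mean of PYK10, EXPA7 and EXPA18. The printed organ matched the higher of both means on 9 of 24 arrays. A second grouping was set beside the printed one: the serial numbers were sorted as text (1, 10, 11 and so on), and each array took the printed group of the serial equal to its place in that order. This text order is inferred and no label states it, so all results under it depend on it. Its organ matched the markers on 23 arrays, array 24 being the exception. For 22 arrays the best correlated other array was of the same text-order species and organ, against 5 for the printed species and organ. For the full group, zinc included, that count was 1 under either grouping. By text order nearly all best matches thus joined a control and a high zinc array of the same species and organ. These correlations give no support to the zinc labels of either grouping. Their cause was not tested, and the text-order fits below held no term for such likeness. The median signal of an array lay between 43 and 71.5.

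The highest levels of the genes lay on arrays 4 to 9 under either grouping. By text order arrays 7, 8 and 9 are A. petraea high zinc leaves and arrays 4, 5 and 6 are A. petraea control leaves, together all the leaf arrays of that species. As printed, arrays 4, 5 and 6 are A. halleri high zinc roots and arrays 7, 8 and 9 are A. halleri control leaves. Leaf markers exceeded root markers on all 6, by 3.24 to 5.64 on the log2 scale. They also did so, by 3.88 to 5.83, on arrays 2 and 15 to 19, the text-order A. halleri leaves, of which the titles call 5 roots and 5 A. petraea. Array 24, printed as A. petraea high zinc leaves and by text order A. petraea high zinc roots, had leaf markers 3.43 above root markers. It is given on its own below.

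**Figure D1:**
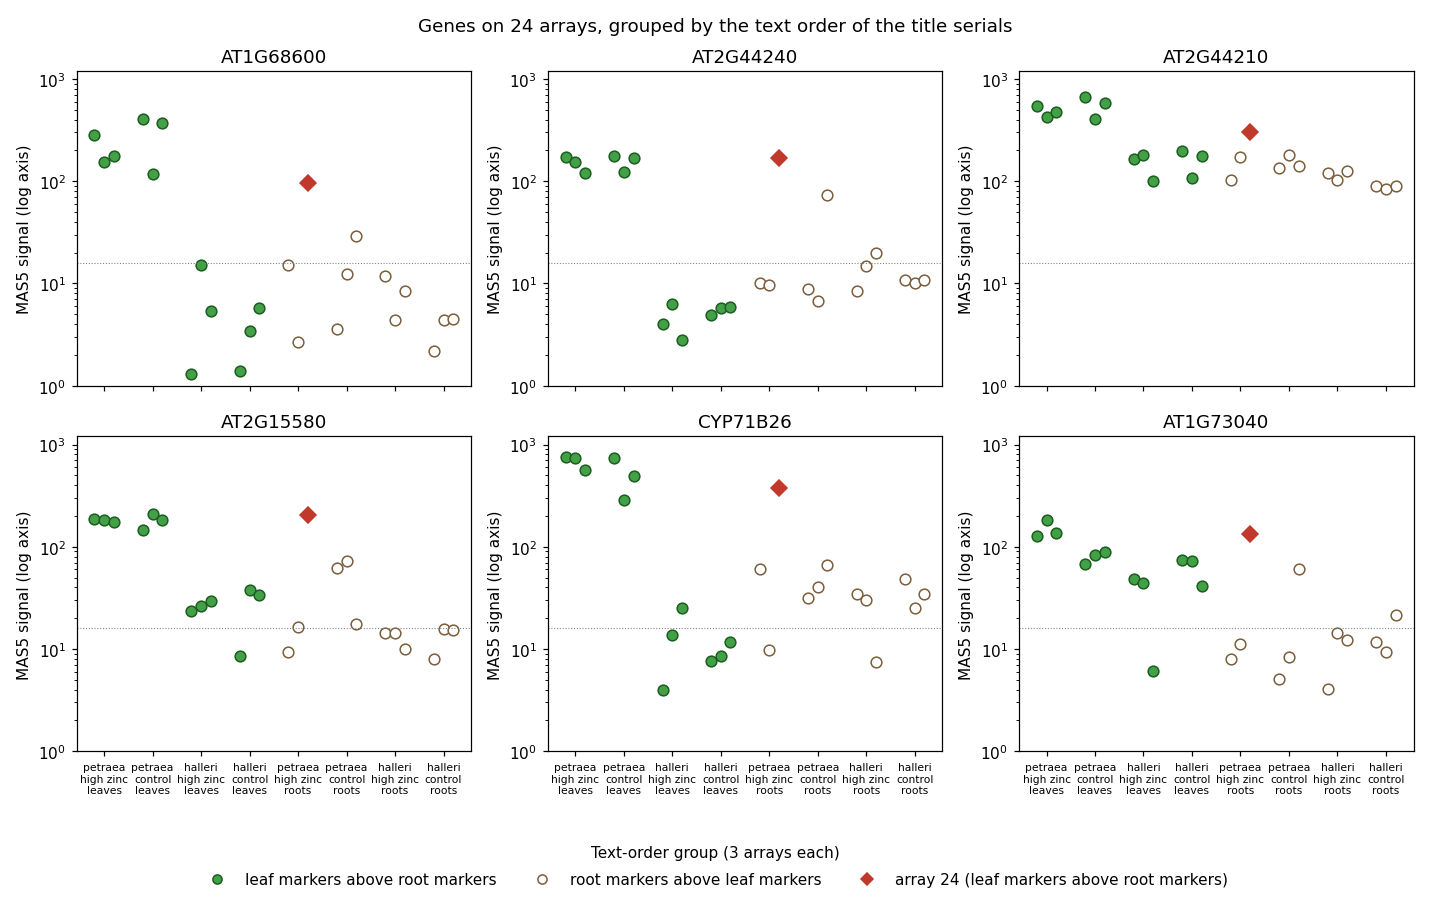
MAS5 signal (log axis) of each gene on every array, by text-order group of 3 arrays. Filled green points have leaf markers above root markers, open points the reverse, the red diamond is array 24, and the dotted line is a signal of 16. The 6 A. petraea leaf arrays lie above the other arrays apart from array 24 in every panel but that of AT1G73040.

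AT1G68600, the malate transporter family gene, had signals of 286.0, 155.5 and 177.1 in A. petraea high zinc leaves and of 408.5, 116.7 and 370.6 in A. petraea control leaves. In A. halleri leaves it had 15.1, 5.4 and 1.3 with high zinc and 1.4, 3.4 and 5.7 in controls. Array 24 had 95.6, and the other 5 A. petraea root arrays had 2.7 to 29.0 while A. halleri roots had 2.2 to 11.8. The gene was thus clearly measured in one set of leaves and near the bottom of the scale in the other and in roots, with no overlap. Its A. petraea leaf arrays spanned a 3.50-fold range, the widest of the 6 genes.

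CYP71B26 had signals of 759.1, 731.7 and 567.1 in A. petraea high zinc leaves and of 735.8, 284.4 and 495.5 in A. petraea control leaves. In A. halleri leaves the P450 had 13.8, 25.4 and 4.0 with high zinc and 7.6, 8.6 and 11.6 in controls. Array 24 had 379.4, and the root arrays had 9.8 to 66.3 in A. petraea without array 24 and 7.5 to 48.6 in A. halleri. The lowest level of CYP71B26 was therefore in A. halleri leaves, with a median of 10.1, and A. halleri roots had a median of 32.25, though both sets overlapped.

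AT2G44240 and AT2G44210, which share the neprosin domain and have close locus numbers, differed in how low they went elsewhere. AT2G44240 had 171.5, 155.6 and 119.7 in A. petraea high zinc leaves and 176.7, 121.8 and 168.8 in A. petraea control leaves. It had 6.3, 2.8 and 4.0 in A. halleri high zinc leaves and 4.9, 5.7 and 5.9 in A. halleri control leaves, with 170.4 on array 24. A. petraea leaves and array 24 were alike, and all A. halleri leaf arrays were low. Root arrays had 6.7 to 72.6 in A. petraea without array 24 and 8.4 to 19.8 in A. halleri. The 72.6 belonged to array 22, where leaf markers were 0.39 below root markers on the log2 scale. Whether the signal and the marker levels of that array are linked was not tested. The next highest of these 5 arrays had 10.0.

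AT2G44210 had 550.1, 426.7 and 480.1 in A. petraea high zinc leaves and 664.5, 403.0 and 582.5 in A. petraea control leaves. It had 178.8, 100.9 and 163.3 in A. halleri high zinc leaves and 198.7, 106.9 and 174.6 in A. halleri control leaves, with 299.9 on array 24. Unlike the other 5 genes it was well measured on every array, with at least 84.0, so its difference does not rest on signals near the bottom of the scale. Its root arrays had 103.8 to 182.0 in A. petraea without array 24 and 84.0 to 124.7 in A. halleri.

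AT2G15580, the RING protein gene, was the most even in A. petraea leaves, with a 1.45-fold range. It had 187.3, 181.5 and 174.0 there with high zinc and 145.3, 211.2 and 183.3 in controls, with 202.5 on array 24. In A. halleri leaves it had 26.6, 29.8 and 23.8 with high zinc and 8.6, 37.5 and 33.5 in controls. The leaf arrays of both species did not overlap. Outside leaves, arrays 20 and 21, A. petraea control roots by text order, had 61.8 and 73.2, above every A. halleri array of either organ.

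AT1G73040, the lectin gene, followed the pattern least. It had 128.1, 181.7 and 135.1 in A. petraea high zinc leaves and 68.0, 83.8 and 88.2 in A. petraea control leaves, with 133.1 on array 24. In A. halleri leaves it had 44.1, 6.1 and 48.7 with high zinc and 74.9, 73.1 and 41.8 in controls. The leaf arrays of both species overlapped, since array 4 (68.0) was below arrays 15 and 16. Root arrays had 5.1 to 60.9 in A. petraea without array 24, where array 22 was again the highest, and 4.1 to 21.4 in A. halleri.

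On arrays 4 to 9, all signals of AT1G68600 and AT2G44210 exceeded those of the other 18 arrays, and 0.14% of the 17107 probe sets kept did the same. For the other 4 genes array 24 was higher than at least 1 of the 6. With array 24 left out, a choice made after seeing the data, 5 of 6 genes and 0.433% of probe sets separated, and AT1G73040 did not. Nothing is read from these shares, because the genes were chosen for this split. All 6 genes passed the filter on low signals, but over the 17 arrays outside A. petraea leaves and array 24 only AT2G44210 would have passed it. The other 5 passed through the arrays where they were high.

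**Figure D2:**
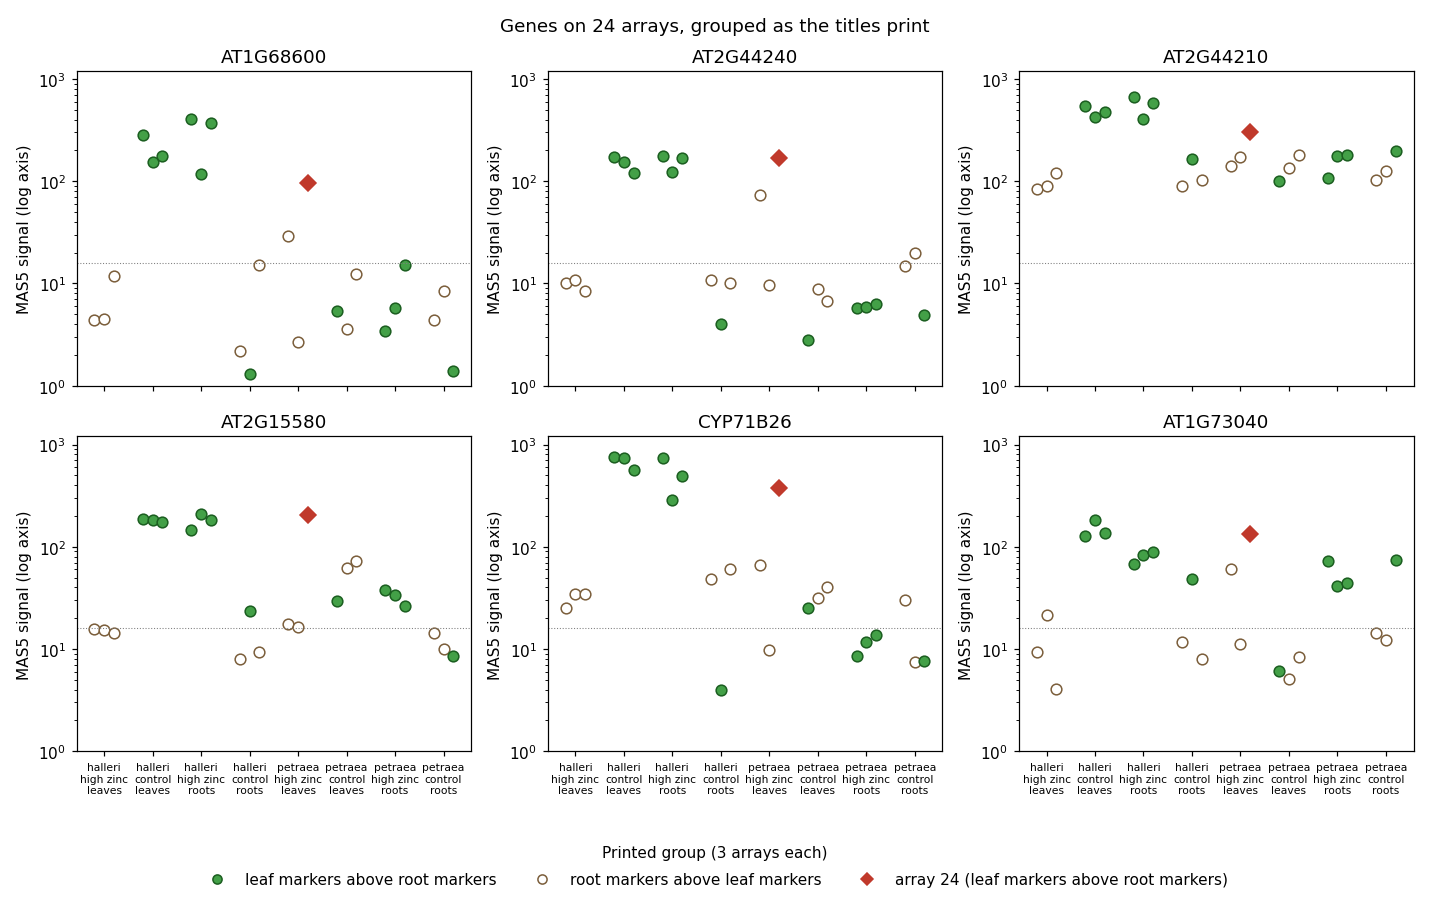
The same signals (log axis) by printed group of 3 arrays, with the same symbols. As printed, the high arrays are A. halleri control leaves, A. halleri high zinc roots and 1 of 3 A. petraea high zinc leaf arrays, and 4 of the 8 printed groups mix arrays with leaf markers and arrays with root markers.

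Across the 24 arrays the genes resembled each other, with Pearson r of 0.66 to 0.95 over 15 pairs and a median of 0.86. This is a description only, over arrays that fall into clusters. AT1G68600 was closest to the mean profile of the other 5 genes (r = 0.96) and AT1G73040 the farthest (r = 0.755). The likeness to AOP3 was highest for AT2G44210 (r = 0.91) and lowest for AT1G73040 (r = 0.72). AOP3 had 4650.0, 2937.2 and 3395.5 in A. petraea high zinc leaves and 3277.3, 1747.5 and 3790.6 in A. petraea control leaves, with 2172.6 on array 24 and 12.4 to 47.8 in A. halleri leaves. It parted from AT1G68600 in A. petraea roots, where arrays 20 and 23 reached 359.4 and 592.1 while AT1G68600 stood at 3.6 and 2.7. AT2G15580 had 61.8 on array 20, above every A. halleri array, and 16.3 on array 23. AOP1, the close relative of AOP3, had 15.8 to 43.5 in A. petraea leaves and 26.4 to 72.2 in A. halleri leaves.

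Genes outside the 6 were ranked by their likeness to them, among 9560 named genes tested. The high r and the higher A. petraea leaf levels of those at the top follow from that choice and are no separate result. AOP3 is itself the gene that the 6 were picked to follow. The 10 named genes with the highest r to the mean profile of the 6, over 24 arrays, were AT3G09540 (0.94), AT5G19240 (0.94), AT5G47550 (0.93), AOP3 (0.92), AT4G33670 (0.92), AT1G72290 (0.90), AT5G22460 (0.90), AT5G18470 (0.90), AT4G02340 (0.89) and AT5G52970 (0.88). AT5G47550 encodes a cystatin, an inhibitor of cysteine proteases, and had a median signal of 358.4 in A. petraea leaves and 114.05 in A. halleri leaves, with 308.6 on array 24. AT4G33670, the L-galactose dehydrogenase of vitamin C synthesis, had medians of 715.3 in A. petraea leaves and 218.45 in A. halleri leaves, with 425.2 on array 24. AT1G72290, of the Kunitz protease inhibitor family, was the brightest of the 10, at 2876.7 to 11175.7 in A. petraea leaves. Its median was 242.6 in A. halleri leaves and 8.1 on the 11 root arrays without array 24, so this gene was higher in the leaves of either species than in roots.

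Both groupings place arrays 4 to 9 in a single species. Whether they resemble the roots of their text-order species was read from probe sets other than the 6 genes. The species names here come from the text-order labels of the root arrays, so this comparison cannot tell which species an array is. Between text-order A. petraea and A. halleri roots, without array 24, 596 probe sets (3.48%) were called, 317 (1.85%) higher and 279 (1.63%) lower in A. petraea. A species index was the mean log2 level of the 317 minus that of the 279 on an array. The leaf arrays entered that choice only through the filter and the pooled spread of the fit, and array 24 only through the filter. The root arrays set the calls and their index is no check. The index was 1.15 to 1.37 in A. petraea leaves and -0.26 to 0.07 in A. halleri leaves, with no overlap. On array 24 it was 1.22, inside the range of A. petraea leaves, and that array correlated best with array 5 (r = 0.92). A. petraea roots without array 24 had 1.31 to 1.67 and A. halleri roots -1.32 to -1.05, so A. petraea leaves lay near the roots of their text-order species while A. halleri leaves lay between both root sets. The index was also taken, after seeing the data, from 526 probe sets called in a fit and filter of the 11 root arrays alone. It was then 1.12 to 1.47 in A. petraea leaves and -0.38 to 0.08 in A. halleri leaves, with 1.29 on array 24, again without overlap. With array 24 kept, 802 probe sets were called in roots (4.69%, with 2.26% higher and 2.43% lower), and 83.3% of them had the same sign in leaves, against 86.1% of the 596 without it. The same-sign share over all probe sets was not computed, so nothing is read from these 2 shares. Those called with the same sign in both organs were 26.3% of the root calls and 20.4% of the leaf calls. Of all probe sets, 6.06% were called in either direction between the leaf sets and 4.69% between the root sets. Probes made for A. thaliana can lose signal where a species differs in sequence. Weaker binding and lower transcript levels cannot be told apart here, for these probe sets or for the 6 genes.

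**Figure D3:**
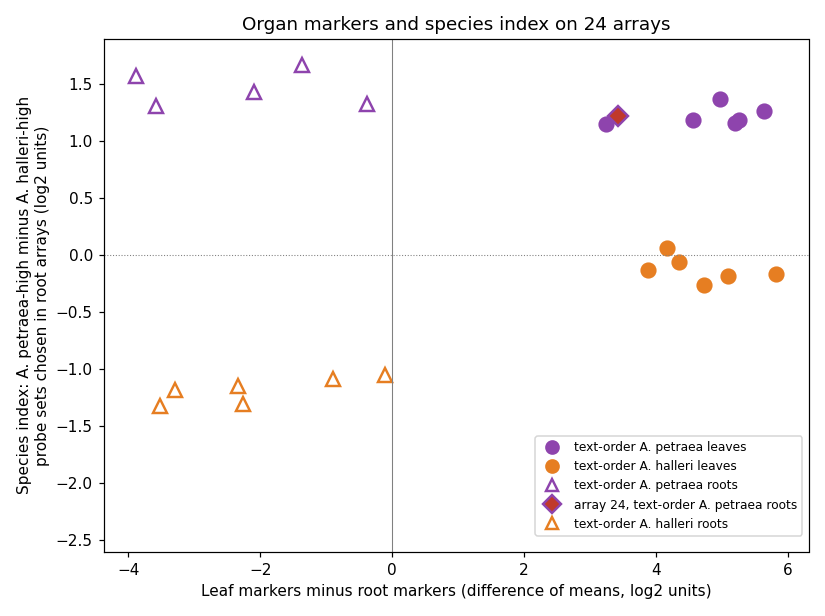
Each of the 24 arrays by the difference between leaf and root markers and by the species index, both in log2 units, with symbols for text-order species and organ. A. petraea leaves (1.15 to 1.37) and array 24 (1.22) stand apart from A. halleri leaves (-0.26 to 0.07).

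In the text-order fit, A. petraea leaves minus A. halleri leaves was 4.43 ± 0.43 for CYP71B26, 3.55 ± 0.36 for AT1G68600 and 3.00 ± 0.39 for AT2G44240 (difference on the log2(signal + 16) scale, SE). It was 2.24 ± 0.38 for AT2G15580, 1.67 ± 0.22 for AT2G44210 and 1.09 ± 0.39 for AT1G73040. In A. petraea, roots minus leaves ran from -2.96 ± 0.43 for CYP71B26 to -1.55 ± 0.22 for AT2G44210. The roots there include array 24 with its leaf markers. Without it the values ran from -3.49 ± 0.30 for CYP71B26 to -1.73 ± 0.21 for AT2G44210. CYP71B26 led the order of the genes in both contrasts. The added 16 shrinks every difference, and more so where the low side is dim. This holds for AT1G68600, AT2G44240 and CYP71B26, at or under 25.4 on every A. halleri leaf array. AT2G15580 and AT1G73040 went down to 8.6 and 6.1 there, so their differences are understated too. The genes were chosen on these contrasts and no test is drawn from them. Among all probe sets, 6.06% were called between the leaf sets, 3.16% higher and 2.9% lower in A. petraea, and 6.75% without array 24, 3.66% higher. Between A. petraea roots and leaves 21.5% were called, 9.36% lower in roots, and 24.5% without array 24, 10.5% lower.

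Other comparisons leave A. petraea leaves out or stay within them. Their arrays were also among the 24 over which the genes were picked for likeness to AOP3, so limma's values there describe the genes and are not independent tests. In A. halleri, roots minus leaves was -1.08 ± 0.39 for AT1G73040 (limma adjusted p = 0.0362). This gene was 1 of the 5 that passed the filter through the arrays where they were high. It was the only 1 of 6 called, where 38% of all probe sets were called, 25.6% higher and 12.4% lower in roots. The lectin gene had 4.1 to 21.4 in A. halleri roots and 6.1 to 74.9 in A. halleri leaves, and array 19 (6.1) alone of the leaf arrays fell within the root range. The call was lost in 8 of 12 fits without 1 A. halleri array (arrays 1, 2, 10, 12, 14, 15, 16 and 18), with limma adjusted p up to 0.0856.

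The other 5 genes were not called between A. halleri roots and leaves. AT2G44210 stood at -0.50 ± 0.22 (limma adjusted p = 0.084) and AT2G15580 at -0.52 ± 0.38. CYP71B26 stood at 0.70 ± 0.43, AT2G44240 at 0.44 ± 0.39 and AT1G68600 at 0.05 ± 0.36, where the median of all probe sets was 0.28. In bulk tissue, fewer cells of a type and less RNA per cell cannot be told apart.

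In roots, A. petraea minus A. halleri was above 0 for all 6 genes, and none was called by limma. Of all probe sets 4.69% were called, and the median difference over all probe sets was -0.08. The 6 genes were picked for a shared profile, so their common sign is no separate result. AT2G15580 had the largest difference (1.03 ± 0.38, adjusted p = 0.122), AT2G44210 stood at 0.62 ± 0.22 (adjusted p = 0.12) and AT1G73040 had the smallest (0.51 ± 0.39, adjusted p = 0.499). The first 2 of these had an unadjusted p under 0.05. Array 24, with its leaf markers, counts among A. petraea roots here. Without it the 6 differences were 0.09 to 0.54, with limma adjusted p of 0.244 to 0.923, beside 3.48% of all probe sets called.

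No response to zinc was called for any of the 6 genes under text order, in either organ of either species. These fits held no term for the likeness of control and high zinc arrays, so the lack of calls does not show a lack of response. In A. petraea leaves high zinc minus control ran from -0.37 ± 0.50 for AT1G68600 to 0.77 ± 0.56 for AT1G73040. The high zinc arrays of AT1G73040 all lay above its control arrays (limma adjusted p = 0.999). How many of all probe sets separated in this way was not counted, so nothing is read from it. In A. halleri leaves the range was -0.82 ± 0.56 for AT1G73040 to 0.22 ± 0.50 for AT1G68600, so the lectin gene had the highest value in one species and the lowest in the other. The difference between these 2 responses was 1.58 ± 0.79, with a limma adjusted p of 1.

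In roots the zinc differences were of similar size. They ran from -0.13 ± 0.53 for AT2G15580 to 0.60 ± 0.61 for CYP71B26 in A. petraea and from -0.44 ± 0.61 for CYP71B26 to 0.35 ± 0.32 for AT2G44210 in A. halleri. Without array 24 all 6 A. petraea root values were below 0, from -1.11 ± 0.37 for AT2G15580 to -0.15 ± 0.32 for AT2G44210. Across all probe sets limma called 1 (0.00585%) in A. petraea leaves and 0 in the other 3 comparisons. At an unadjusted p under 0.05 there were 466 in A. petraea leaves, 100 in A. halleri leaves, 434 in A. petraea roots and 322 in A. halleri roots. None of the 6 genes was among these, and AT2G15580 alone had such a p in A. petraea roots once array 24 was left out.

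**Figure D4:**
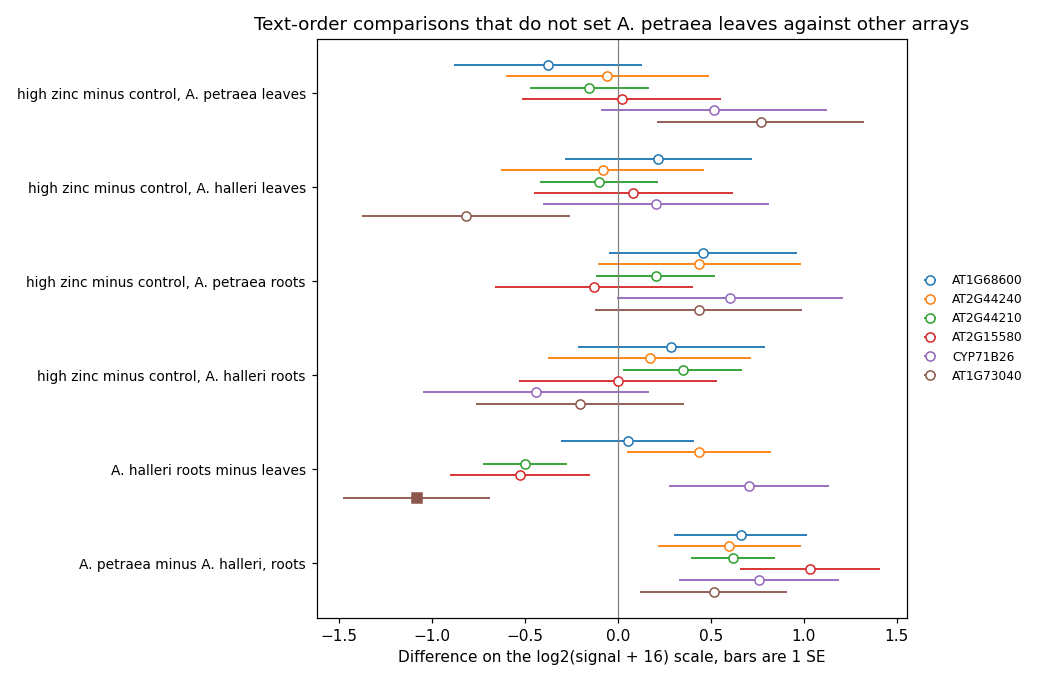
Difference on the log2(signal + 16) scale of each gene, with bars of 1 SE, in the text-order comparisons that do not set A. petraea leaves against other arrays. AT1G73040 in A. halleri roots minus leaves (filled square, -1.08) was called by limma and the open circles were not.

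As printed, the same arrays give zinc differences of opposite sign in A. halleri. In arrays titled leaves, high zinc minus control ran from -3.88 ± 0.65 for CYP71B26 to -2.14 ± 0.33 for AT2G44210, with all 6 genes called beside 17.2% of probe sets, 6.24% lower. In arrays titled roots it ran from 1.45 ± 0.51 for AT1G73040 to 3.70 ± 0.50 for AT1G68600, with 4 of 6 called beside 0.0585% of probe sets, 0.0468% higher. These contrasts also set arrays 4 to 9 against others, and nothing is read from the counts. In both, the high arrays had leaf markers above root markers, while all 3 arrays titled A. halleri high zinc leaves and 2 of 3 titled A. halleri control roots had the reverse. The root count was 0 without control array 1 or high zinc array 4 or 6, and 1 without control array 3. In arrays titled A. petraea leaves or roots 0 of 6 genes and 0 probe sets were called. AT2G44240 (1.77 ± 0.44) and AT1G73040 (1.59 ± 0.51) had an unadjusted p under 0.05 there, both in leaves, with array 24 on the high zinc side.

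Families of the 6 genes were read between A. petraea and A. halleri leaves by text order, without the 6 themselves. The share of all probe sets to set beside each list was 3.16% higher and 2.9% lower in A. petraea leaves. Lists this short allow no reading of a share. Of 21 listed CYP71B genes 7 others were tested, and 2 were higher in A. petraea leaves. CYP71B35 had a median signal of 131.35 in A. petraea leaves and 22.6 in A. halleri leaves (1.91 ± 0.26, limma adjusted p = 7.13e-05). CYP71B34 had 66.8 in A. petraea leaves and 25.7 in A. halleri leaves (0.92 ± 0.19, limma adjusted p = 0.00606). Both have locus numbers that follow that of CYP71B26 in A. thaliana, and whether probes of such related genes bind each other's transcripts was not tested. The other 5 were not called, from -1.04 ± 0.36 for CYP71B23 to 0.91 ± 0.56 for CYP71B22.

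Other families had few tested members: 10 of 38 listed lectins, 2 of 14 malate transporters and 4 of 24 glucosinolate genes. Of 10 tested jacalin-related lectins JAL22 was lower in A. petraea leaves, at a median of 101.35 against 314.75 in A. halleri leaves (-1.48 ± 0.23, limma adjusted p = 0.000386), and 9 were not called. JAL23 had 1359.7 in A. petraea leaves and 355.05 in A. halleri leaves (1.64 ± 0.56, limma adjusted p = 0.0906, and 0.00568 without array 24). AT1G52000 stood at 0.90 ± 0.38 (limma adjusted p = 0.187, and 0.0378 without array 24). Without array 24, 2 lectins were thus higher and 1 was lower, beside 3.66% and 3.09% of all probe sets. Of 2 tested malate transporters none was called, with AT2G27240 at -0.25 ± 0.29 and AT4G00910 at 0.31 ± 0.30. Among the 4 tested genes of the glucosinolate list AOP3, whose pattern the 6 genes share, differed by 6.06 ± 0.67. AOP1, UGT74B1 and BCAT4 were not called. BCAT4, which starts the chain elongation of methionine, stood at 0.20 ± 0.42. The list medians were 0.69 for CYP71B genes, -0.02 for lectins, 0.03 for malate transporters and 0.13 for glucosinolate genes, and that of all probe sets was 0.01.

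Among neighbours by locus number, the called genes that were higher were those beside CYP71B26. Of 15 tested genes known to lie within 50 locus numbers of one of the 6, 2 were higher in A. petraea leaves and 12 were not called. The 2 were CYP71B34 and CYP71B35, already counted in the CYP71B list. Of all probe sets 3.16% were higher and 2.9% lower. The 1 lower gene was AT1G73066 (-1.07 ± 0.23, limma adjusted p = 0.0057). AT2G44230, whose number lies between those of the neprosin pair, had a median of 94.5 in A. petraea leaves and 49.8 in A. halleri leaves (0.57 ± 0.21, limma adjusted p = 0.126). The median over the 15 was 0.05. Genes annotated by a symbol outside the lists could not be placed, so the set may lack neighbours. Of 12 listed metal genes known to be high in A. halleri, only 2 had a named probe set, and these 2 were tested. ZIP6, a zinc transporter family gene, was lower in A. petraea leaves, at 104.85 against 251.15 in A. halleri leaves (-1.39 ± 0.36, limma adjusted p = 0.0214), and ZIP9 was not called (0.03 ± 0.45). The list median was -0.68.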

How the data were processed

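Signals deposited by the authors were made with MAS5, per the submitters' processing notes, and are an intensity on a linear scale. Its version and settings were not given in the labels. Trimmed of 2% at either end, their mean was 100.0045 to 100.0107 on every array. Signals were taken as log2(signal + 16), and the lowest 25% of probe sets by mean over all arrays were dropped, leaving 17107. That mean was taken on the log2 scale. A mean of linear signals was run first, and the log2 mean was kept after both had been seen, because earlier work on these data used it. Names came from the platform annotation (13513 probe sets with 1 gene, 503 with several, 8794 unnamed). The brightest probe set stood for a gene.

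In R 4.3.3, limma 3.58.1 fitted 8 group means (16 residual degrees of freedom), by printed group and by text order, with trend and robust eBayes and two-sided tests. Calls had a Benjamini-Hochberg adjusted p under 0.05. The script was tested on simulated data. The 6 genes, the lists and the tests were chosen with earlier results of these data known. Leaving out array 24, the species index and its root-only form, and the neighbour list were added after seeing the data. Besides the 6, the text names AOP3, AOP1, the 10 most alike genes and called list members, and a few uncalled list members chosen after their values were seen. Among A. halleri control roots 2 arrays print number 1, and array 3 is called replicate 3. Array 1 is labelled with an earlier growth stage and was kept. Deviations of arrays with the same printed number from their printed group means were compared, and no label states a pairing. In A. petraea roots r was 0.22, 0.11 and 0.38, and in A. petraea leaves -0.13, 0.60 and -0.40. As 4 of the 8 printed groups mix arrays with leaf and root markers, these values cannot tell a pairing from mixed organs. Pairing was not checked by text order. The 3 arrays of a group limit the precision.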

Additional observations from a re-analysis of the deposited data

Results flagged for a closer look

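The 6 genes were screened for single arrays far from the others of a text-order species and organ, 24 sets of 6 arrays in all, and chance flags about 1 set in 20. AT1G73040 on array 19 was the 1 value found. This array, titled A. petraea control leaves and by text order A. halleri high zinc leaves, had a signal of 6.1, and the next lowest A. halleri leaf array had 41.8. The gap to that array on the log2 scale was 0.68 of the range over the 6 arrays. On array 19 leaf markers were 4.34 above root markers and the species index was -0.06, both inside the range of A. halleri leaves.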

How the results depend on the processing

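Alternatives were pseudocounts of 1 and 64, no filter, a filter on linear means (added after seeing the data), quantile normalization, array weights and leaving out each array in turn. Under text order, 0 of the 6 genes were called for zinc in all 4 comparisons under every one of these. No alternative under text order held a term for the likeness of control and high zinc arrays, so these counts do not cover it. For A. halleri roots against leaves 1 gene was called, 2 with quantile normalization, 3 with array weights (52.1% of all probe sets, against 38% without weights) and 0 to 2 without single arrays. AT1G68600, at 0.05 there, changed sign to -0.066 with quantile normalization and was -0.043 to 0.17 without single arrays (-0.043 without array 2). For species in roots 0 were called, 2 with array weights (16.5% of all probe sets, against 4.69%) and 0 to 2 without single arrays (2 without array 3). By printed labels the counts were 6 in A. halleri leaves (6 without any single array), 4 in A. halleri roots (0 to 3), 0 in A. petraea leaves (0 to 1, with 1 without array 23) and 0 in A. petraea roots (1 with array weights, which called 18.6% of all probe sets against 0%). In A. halleri leaves array weights called 51.4% of all probe sets against 17.2%. With the printed number as a replicate block they were 6, 5, 0 and 0. The share of root species probe sets with the same sign in leaves was 83.3%, 87.2% with a pseudocount of 1, 80.9% with a pseudocount of 64, 84.7% with quantile normalization and 86.1% without array 24. The causes were not tested. Dim signals on the low arrays limit how large a fold can be measured for 5 of the 6 genes.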
